A study of Mus musculus with 8 samples.

Results

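The 37 genes described here carry glucose through glycolysis and link it to the response to low oxygen. They comprise 4 transporters of glucose and lactate, 18 glycolytic enzymes, 2 regulators of phosphofructokinase, 5 genes of pyruvate entry into mitochondria, 5 genes of the hypoxia-inducible factor (HIF) pathway and 3 HIF-induced genes. They were chosen by gene symbol, and all 37 were found among the 12133 genes listed for the in vitro samples and the 12665 listed for the in vivo samples. RNA sequencing measured their transcripts in mouse thymocytes, in 4 groups of 2 libraries. All mice carried Bcl6fl/fl, loxP-flanked alleles of the transcriptional repressor Bcl6. The groups labelled KO were Bcl6fl/fl Cd4cre, in which Cre is driven by Cd4 sequences that become active at the double-positive stage, and the groups labelled WT were Bcl6fl/fl without Cre. Age and sex are not given. For the in vitro groups, sorted CD4+CD8+ thymocytes were cultured in RPMI1640 medium for 24 h on plates bearing antibodies to CD3 and CD28 (8 µg/ml of each), and cells that had turned CD4-CD8- were sorted. For the in vivo groups, CD4-CD8-CD5+TCRb+ thymocytes, which hold agonist-selected precursors, were sorted without culture. The study asked how loss of Bcl6 bears on the thymic precursors of TCRαβ+CD8αα+ intraepithelial lymphocytes.

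One limit on the labels comes first. In vitro, Bcl6 itself had 64.6 and 61.0 FPKM (read fragments scaled by transcript length and library depth) in the libraries labelled KO, against 24.9 and 21.9 FPKM in those labelled WT. The targeted gene thus had more transcript, not less, under the KO label. In vivo, Bcl6 had 8.81 and 14.4 FPKM in the libraries labelled KO, against 11.5 and 13.9 FPKM in those labelled WT, and the groups overlapped. The values cover the whole gene and the deleted exons are not given, so they do not show whether deletion took place. KO and WT below are the submitters' labels, and "rose" and "fell" describe KO-labelled against WT-labelled libraries. Nothing in the labels ties the replicates to different mice or cultures, so the p-values reflect only how far these samples scatter, which may be technical. The in vitro and in vivo libraries were made by different providers, and system and provider cannot be told apart. Total counts ranged from 14754440 to 23975636 per library. The T cell genes Cd3d, a CD3 chain, and Cd5, part of the in vivo gate, were high in every library, at 143 or more and 62.5 or more FPKM. Cd4 transcript was present although both gates excluded CD4, with 10.9 and 11.4 FPKM under the KO label in vitro, against 6.84 and 6.98 FPKM under the WT label. In vivo Cd4 had 22.8 and 78.4 FPKM under the KO label, against 26.8 and 55.0 FPKM under the WT label. Both gates excluded CD8 as well. Cd8a in vitro lay opposite to Cd4, with 7.78 and 7.26 FPKM under the KO label, against 9.67 and 10.9 FPKM under the WT label. Cd8b1 in vitro had 12.4 and 9.44 FPKM, against 5.22 and 8.09 FPKM. In vivo Cd8a overlapped between labels, and Cd8b1 had 7.82 and 14.9 FPKM under the KO label, against 4.03 and 4.90 FPKM.

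Glycolysis splits glucose into pyruvate in the cytosol. Pyruvate is then either reduced to lactate and exported, or carried into mitochondria and oxidised by pyruvate dehydrogenase. T cells that have met a strong receptor signal raise glucose uptake, lactate output and the expression of many of these enzymes. HIF factors bind hypoxia response elements and induce many glycolytic genes. Prolyl hydroxylases of the Egln family mark HIF alpha subunits for destruction through the Vhl ubiquitin ligase while oxygen is available.

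The sequences upstream of the start sites of 6 genes that fell or rose in vitro and of Eno3, which fell in both systems, are shown because the first 6 hold the core of the hypoxia response element and the Eno3 window does not hold its ACGTG form. They come from RefSeq on GRCm38.p6 (mm10) and are written 5′ to 3′ on the gene's strand. Capitals mark ACGTG or GCGTG on either strand, so CACGT and CACGC are the same motifs read from the other strand. The windows of Slc16a3, Pfkfb3 and Ddit4 stop where an annotated transcript of the same gene begins.
Slc16a3, chr11:120948817-120949052, plus strand: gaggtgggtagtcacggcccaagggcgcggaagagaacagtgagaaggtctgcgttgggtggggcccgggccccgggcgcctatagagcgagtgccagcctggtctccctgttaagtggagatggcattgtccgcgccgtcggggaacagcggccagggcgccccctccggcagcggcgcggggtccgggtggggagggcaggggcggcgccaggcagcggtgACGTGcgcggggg
Slc16a1, chr3:104638414-104638663, plus strand: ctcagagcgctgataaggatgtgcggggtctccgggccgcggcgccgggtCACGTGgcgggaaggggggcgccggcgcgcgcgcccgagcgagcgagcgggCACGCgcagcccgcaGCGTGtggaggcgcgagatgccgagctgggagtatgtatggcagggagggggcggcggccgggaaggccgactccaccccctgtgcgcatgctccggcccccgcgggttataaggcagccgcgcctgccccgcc
Hk2, chr6:82774455-82774704, minus strand: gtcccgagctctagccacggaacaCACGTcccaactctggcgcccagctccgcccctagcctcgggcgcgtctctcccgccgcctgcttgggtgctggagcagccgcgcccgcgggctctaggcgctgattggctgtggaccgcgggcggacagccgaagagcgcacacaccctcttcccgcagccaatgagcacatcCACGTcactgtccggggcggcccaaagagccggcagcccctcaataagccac
Pfkfb3, chr2:11502102-11502340, minus strand: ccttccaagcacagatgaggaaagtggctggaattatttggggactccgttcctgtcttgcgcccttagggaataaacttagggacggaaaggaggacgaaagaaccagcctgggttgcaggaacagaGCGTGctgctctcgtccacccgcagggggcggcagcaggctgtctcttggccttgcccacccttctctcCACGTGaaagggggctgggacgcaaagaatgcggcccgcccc
Pgam1, chr19:41911621-41911870, plus strand: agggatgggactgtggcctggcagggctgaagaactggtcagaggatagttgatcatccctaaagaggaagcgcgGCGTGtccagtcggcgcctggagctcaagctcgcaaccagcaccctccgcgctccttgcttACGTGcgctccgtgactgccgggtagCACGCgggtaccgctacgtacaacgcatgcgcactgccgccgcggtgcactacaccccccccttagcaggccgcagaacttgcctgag
Ddit4, chr10:59951835-59952020, minus strand: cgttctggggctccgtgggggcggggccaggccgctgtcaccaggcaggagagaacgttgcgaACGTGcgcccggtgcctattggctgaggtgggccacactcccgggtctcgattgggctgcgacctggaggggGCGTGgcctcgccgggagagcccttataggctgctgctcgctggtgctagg
Eno3, chr11:70656926-70657175, plus strand: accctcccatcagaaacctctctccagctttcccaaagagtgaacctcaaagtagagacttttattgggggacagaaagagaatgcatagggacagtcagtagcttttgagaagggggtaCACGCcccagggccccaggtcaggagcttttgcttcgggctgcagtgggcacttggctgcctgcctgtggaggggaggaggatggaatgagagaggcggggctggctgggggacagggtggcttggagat

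Promoter windows of 250 bases before a start site were at hand for 34 of the 37 genes. ACGTG was found on either strand before at least 1 start of 17 of these 34 genes (50%), against 4998 of 27025 genes genome-wide (18.5%). GCGTG was found in 23 of 34 (67.6%), against 30.9% of all genes. CACGTG, which contains ACGTG on both strands, was found in 6 of 34 (17.6%), against 6.86% of all genes. The BCL6 core TTCCTNGAA was found in 2 of 34, Aldoc and Pfkm, against 1.54% of all genes, and in none of the 11 genes that fell in vitro. Base composition was not matched, and these matches are descriptions of letters in a window. Among genes with a window, ACGTG stood before 7 of 11 that fell in vitro, 1 of 3 that rose and 9 of 19 that did not pass the test.

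In vitro, the lactate and proton-linked monocarboxylate transporters, the inducible hexokinase, the bifunctional enzyme Pfkfb3 and several enzymes of the lower pathway were lower in the libraries labelled KO. Of 35 genes tested in vitro by edgeR's quasi-likelihood test at a Benjamini-Hochberg adjusted p under 0.05, 4 rose (11.4%) and 11 fell (31.4%), and 20 did not pass. Across all 9658 genes tested in this contrast, 37.8% were called, 20.1% higher and 17.7% lower. The share of these genes called in either direction, 42.9%, lay near that background. Their median log2 fold change was -0.12, against -0.00 for all genes, with a range of -1.85 to 0.41. FPKM of the groups did not overlap for 6 genes higher and 17 lower under the KO label, against 71.1% of all tested genes, 32.5% higher and 38.6% lower. With the limma test on FPKM rescaled to TPM, the counts were 5 risen and 8 fallen. The share of called genes that were higher, over all genes, was then 63.3%. It was 47.9% with limma on FPKM at the same pseudocount of 1, and 53.2% in the edgeR test. Summed FPKM of the 18 enzymes was 1340 and 1565 in the libraries labelled KO, against 1827 and 1589 in those labelled WT, so the groups did not overlap, although the higher KO library and the lower WT library lay close together. This sum was not tested.

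**Figure D1:**
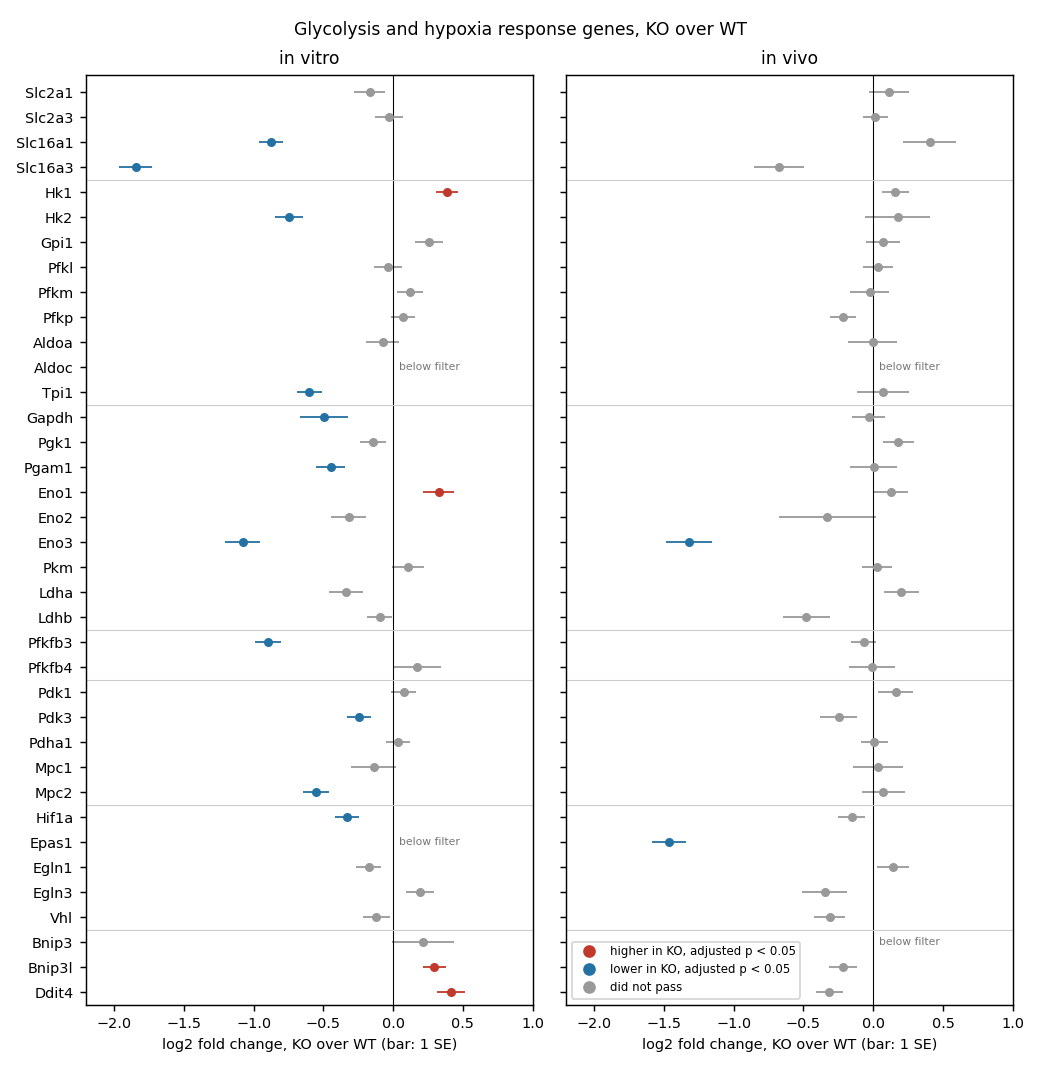
The log2 fold change of each gene, KO over WT, is drawn with 1 SE for the in vitro (left) and in vivo (right) libraries, ordered by role with grey lines between roles. In vitro 4 genes lie higher and 11 lower past an adjusted p of 0.05, with Slc16a3 at -1.85, and in vivo Eno3 and Epas1 alone pass.

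The glucose and lactate transporters held the largest change. Slc16a3 encodes MCT4, a carrier known for lactate export from glycolytic cells, and lies on chr11:120948480-120960868 (mm10, plus strand). It had 6.74 and 8.79 FPKM in the libraries labelled KO in vitro, against 29.1 and 27.9 FPKM in those labelled WT. The groups lay far apart, and Slc16a3 fell 3.59-fold (log2 fold change -1.85, SE 0.12, edgeR adjusted p = 1.38e-06). Slc16a1, which encodes MCT1, a carrier that moves lactate in either direction, lies on chr3:104638668-104658462 (plus strand). It had 11.8 and 12.5 FPKM in the libraries labelled KO, against 23.3 and 21.9 FPKM in those labelled WT. It fell 1.83-fold (log2 fold change -0.87, SE 0.09, edgeR adjusted p = 2.81e-05), again without overlap. The glucose carriers did not pass. Slc2a1 (GLUT1) had 9.87 and 12.5 FPKM under the KO label, against 12.97 and 12.6 FPKM under the WT label, a log2 difference of -0.17 (SE 0.11, edgeR adjusted p = 0.264). Without KO replicate 2 the Slc2a1 difference was -0.35 and passed (adjusted p = 0.0223). Slc2a3 (GLUT3) had 3.72 and 3.90 FPKM under the KO label, against 4.03 and 3.89 FPKM under the WT label, with overlap and an edgeR adjusted p of 0.839.

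At the first step of glycolysis the hexokinase pair moved in opposite directions. Hk2, the inducible hexokinase (chr6:82725025-82774454, minus strand), had 4.03 and 4.26 FPKM in the libraries labelled KO in vitro, against 7.49 and 6.67 FPKM in those labelled WT. It fell 1.68-fold (log2 fold change -0.75, SE 0.10, edgeR adjusted p = 0.00022). Hk1, the widely expressed hexokinase, had 18.9 and 20.1 FPKM under the KO label, against 15.3 and 15.1 FPKM under the WT label. It rose 1.31-fold (log2 fold change 0.39, SE 0.08, edgeR adjusted p = 0.00288), without overlap. Hk2 therefore made up 17.5% and 17.5% of summed hexokinase FPKM under the KO label, against 32.9% and 30.6% under the WT label. The 3 phosphofructokinase genes, whose product commits sugar to glycolysis, did not pass. Pfkp was the highest of them, with 26.7 and 25.2 FPKM under the KO label, against 25.9 and 24.4 FPKM under the WT label. Tpi1, which interconverts the triose phosphates, had 38.7 and 42.6 FPKM under the KO label, against 66.5 and 59.0 FPKM under the WT label. Tpi1 fell 1.52-fold (log2 fold change -0.60, SE 0.09, edgeR adjusted p = 0.000428). Gpi1, which turns glucose phosphate into fructose phosphate, had 90.3 and 103 FPKM under the KO label, against 85.7 and 79.3 FPKM under the WT label, an edgeR adjusted p of 0.0675. Aldoa, the main aldolase here, overlapped between labels, at 139 and 160 FPKM under the KO label, against 177 and 145 FPKM under the WT label. Its relative Aldoc lay below the filter, with 36 and 35 counts under the KO label, against 21 and 16 counts under the WT label. The ratio of Aldoc counts per library total was 2.01, with an exact 95% interval of 1.34 to 3.08 that covers counting error only. When the filter was left out, the log2 fold change of Aldoc was 0.97 (SE 0.35, edgeR adjusted p = 0.0432). In all, 8 of the 9 genes of this upper part were tested, of which 1 rose and 2 fell, with a median log2 fold change of 0.01. Over all tested genes 20.1% were higher and 17.7% lower.

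In the lower part, from glyceraldehyde phosphate to lactate, 1 of 9 genes rose and 3 fell, with a median log2 fold change of -0.32. The shares over all tested genes were 20.1% higher and 17.7% lower. Eno3, the enolase best known from muscle (chr11:70657202-70662513, plus strand), had 102 and 138 FPKM in the libraries labelled KO in vitro, against 271 and 245 FPKM in those labelled WT. Eno3 fell 2.11-fold (log2 fold change -1.08, SE 0.13, edgeR adjusted p = 9.48e-05), with the groups well apart. Eno1, the ubiquitous enolase of the same reaction, had 143.9 and 169.7 FPKM under the KO label, against 135.4 and 119.6 FPKM under the WT label. It rose 1.25-fold (log2 fold change 0.33, SE 0.11, edgeR adjusted p = 0.0425). The Eno1 call was lost in 8 alternatives, among them without WT replicate 2 (0.24, adjusted p = 0.17) and without KO replicate 2 (0.20, adjusted p = 0.312). Eno3 made up 40.9% and 44.4% of summed enolase FPKM under the KO label, against 66.1% and 66.5% under the WT label. Eno1 made up 57.9% and 54.7% under the KO label, against 33.1% and 32.5% under the WT label. The leading enolase among Eno1, Eno2 and Eno3 thus differed between labels. Eno1b, a near-identical gene of Eno1 that is listed separately, was left out of the enolase sums in both systems. The Eno1 counts and these shares are therefore uncertain. Eno2, the enolase known from neurons, was low, with 2.995 and 2.72 FPKM under the KO label, against 3.56 and 3.71 FPKM under the WT label (edgeR adjusted p = 0.0702).

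**Figure D2:**
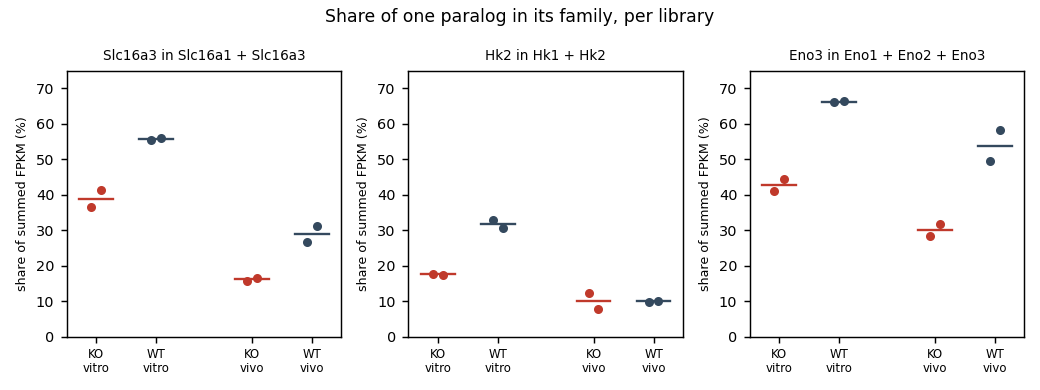
The share of summed FPKM, in percent, that 1 gene holds within its family is drawn per library (dots) with group means (lines) for Slc16a3, Hk2 and Eno3, KO left of WT in each system. The Slc16a3 and Eno3 shares lie lower under the KO label in both systems, and the Hk2 share does so in vitro.

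Pgam1, phosphoglycerate mutase (chr19:41911923-41918660, plus strand), had 73.2 and 82.7 FPKM in the libraries labelled KO in vitro, against 119 and 98.0 FPKM in those labelled WT. Pgam1 fell 1.36-fold (log2 fold change -0.45, SE 0.10, edgeR adjusted p = 0.00558). Gapdh, often used as a housekeeping control, had 33.6 and 47.3 FPKM under the KO label, against 68.7 and 47.5 FPKM under the WT label. The nearest libraries of the groups were almost equal, and its fall of 1.41-fold (log2 fold change -0.49, SE 0.17, edgeR adjusted p = 0.0398) rested on 2 libraries. Without WT replicate 1 it was -0.21 (adjusted p = 0.226), and without KO replicate 1 it was -0.27 (adjusted p = 0.239). Gapdh transcripts also have 76 near-identical genes in GENCODE M21, 74 of them pseudogenes, so its counts are uncertain. Ldha, the lactate dehydrogenase subunit that favours lactate, had 212 and 255 FPKM under the KO label, against 326 and 276 FPKM under the WT label. Its log2 difference of -0.34 (SE 0.12, edgeR adjusted p = 0.0503) missed the threshold, and it passed without WT replicate 2 (-0.45, adjusted p = 0.0083) or KO replicate 2 (-0.48, adjusted p = 0.0171). The other subunit, Ldhb, overlapped, with 74.4 and 85.6 FPKM under the KO label, against 89.2 and 84.9 FPKM under the WT label. Pkm, pyruvate kinase, had 211 and 243 FPKM under the KO label, against 228 and 201 FPKM under the WT label, and Pgk1, phosphoglycerate kinase, had 146 and 158 FPKM under the KO label, against 183 and 160 FPKM under the WT label. Neither Pkm (edgeR adjusted p = 0.505) nor Pgk1 (edgeR adjusted p = 0.255) passed. Pgk1 has 4 near-identical genes, Ldha and Eno1 have 3 each, and Pgam1, Tpi1, Pkm, Ldhb and Gpi1 have 1 each, while Slc16a3, Slc16a1, Hk2, Pfkfb3, Eno3 and Epas1 have 0.

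Pfkfb3 encodes an enzyme that makes the strongest known activator of phosphofructokinase and lies on chr2:11471433-11554077 (minus strand). It had 13.3 and 15.4 FPKM in the libraries labelled KO in vitro, against 28.5 and 26.1 FPKM in those labelled WT. It fell 1.86-fold (log2 fold change -0.90, SE 0.09, edgeR adjusted p = 3.55e-05), without overlap. Its relative Pfkfb4 had 2.44 and 3.40 FPKM under the KO label, against 2.44 and 2.90 FPKM under the WT label, and did not pass (edgeR adjusted p = 0.466). Pfkfb3 was the larger of the pair under both labels, with 84.5% and 81.9% of their summed FPKM under the KO label, against 92.1% and 90.0% under the WT label.

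At the entry of pyruvate into mitochondria, 2 of 5 genes fell and none rose, against 17.7% lower and 20.1% higher of all tested genes. Mpc2, a subunit of the mitochondrial pyruvate carrier (chr1:165460637-165481214, plus strand), had 3.5999 and 3.63 FPKM in the libraries labelled KO in vitro, against 5.32 and 5.47 FPKM in those labelled WT. Mpc2 fell 1.46-fold (log2 fold change -0.55, SE 0.09, edgeR adjusted p = 0.000986). Its partner Mpc1 had 4.12 and 5.04 FPKM under the KO label, against 4.96 and 5.38 FPKM under the WT label, with an edgeR adjusted p of 0.529. Pdk3, a kinase that inhibits pyruvate dehydrogenase, had 25.6 and 23.7 FPKM under the KO label, against 29.6 and 29.9 FPKM under the WT label. Pdk3 fell 1.18-fold (log2 fold change -0.24, SE 0.09, edgeR adjusted p = 0.0469). This call was lost in 8 alternatives, including without WT replicate 1 (-0.25, adjusted p = 0.152), WT replicate 2 (-0.23, adjusted p = 0.147) or KO replicate 2 (-0.19, adjusted p = 0.201). Pdk1, the kinase of this family best known as a HIF target, had 7.60 and 7.28 FPKM under the KO label, against 6.92 and 7.48 FPKM under the WT label (edgeR adjusted p = 0.542). Pdha1, the catalytic subunit of the dehydrogenase, overlapped, with 51.3 and 56.3 FPKM under the KO label, against 55.5 and 51.5 FPKM under the WT label.

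Among HIF pathway genes, Hif1a, the oxygen-regulated subunit of HIF-1, had 20.9 and 18.9 FPKM in the libraries labelled KO in vitro, against 24.4 and 26.5 FPKM in those labelled WT. Hif1a fell 1.26-fold (log2 fold change -0.33, SE 0.09, edgeR adjusted p = 0.0119). Without WT replicate 2 its adjusted p was 0.0858 at -0.26, and without KO replicate 2 it was 0.0638 at -0.26. Epas1, the alpha subunit of HIF-2, was nearly silent in vitro and lay below the filter, with 23 and 35 counts under the KO label, against 8 and 4 counts under the WT label. The ratio of Epas1 counts per library total was 5.07, with an exact 95% interval of 2.69 to 10.4 for counting error only. When the filter was left out, the log2 fold change was 2.28 (SE 0.45, edgeR adjusted p = 0.00167). That sign is opposite to the in vivo change of Epas1 given below, and it rests on these few counts. The prolyl hydroxylases did not pass, Egln1 at 11.7 and 11.6 FPKM under the KO label, against 13.03 and 13.8 FPKM under the WT label. Egln3, itself a HIF target, had 10.99 and 10.6 FPKM under the KO label, against 9.47 and 9.77 FPKM under the WT label (edgeR adjusted p = 0.156). Vhl, the substrate receptor of the HIF ubiquitin ligase, had 13.8 and 12.1 FPKM under the KO label, against 14.4 and 14.3 FPKM under the WT label (edgeR adjusted p = 0.348).

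Of the 3 genes grouped here as HIF-induced, 2 rose in vitro, against 20.1% of all tested genes, a group too small to compare with other roles. Egln3 and Pdk1, described above as HIF targets but placed under other roles, did not pass. HIF factors also induce many glycolytic genes, which were placed under other roles too. The group therefore does not hold every HIF target of the set. Ddit4, which encodes the mTORC1 inhibitor REDD1 (chr10:59949669-59951834, minus strand), had 62.8 and 73.3 FPKM in the libraries labelled KO, against 49.4 and 54.8 FPKM in those labelled WT. Ddit4 rose 1.33-fold (log2 fold change 0.41, SE 0.10, edgeR adjusted p = 0.00662). Bnip3l, a receptor for the removal of mitochondria (chr14:66985239-67008877, minus strand), had 34.0 and 30.8 FPKM under the KO label, against 26.1 and 27.6 FPKM under the WT label. Bnip3l rose 1.23-fold (log2 fold change 0.30, SE 0.09, edgeR adjusted p = 0.0186). Without WT replicate 1 its adjusted p was 0.128 at 0.25, and without KO replicate 1 it was 0.114 at 0.22. Its relative Bnip3 was low and overlapped, with 2.74 and 2.05 FPKM under the KO label, against 1.88 and 2.35 FPKM under the WT label.

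Other features of the in vitro libraries moved with the label. Summed FPKM of 10 proliferation genes was 186 and 183 under the KO label, against 145 and 135 under the WT label, and 5 of 6 tested members rose. Summed FPKM of the 7 heat shock and dissociation stress genes with a row was 405 and 406 under the KO label, against 715 and 629 under the WT label, with 1 risen and 3 fallen of 6 tested. The 6 regulatory T cell markers summed to 97.3 and 97.7 FPKM under the KO label, against 151 and 155 FPKM under the WT label. Of 5 tested, Ctla4 rose, Ikzf2 and Il2ra fell, and the defining marker Foxp3 lay below the filter. Ikzf2 made up most of that sum, with 74.7 and 70.6 FPKM under the KO label, against 116 and 123 FPKM under the WT label. Markers of double-positive thymocytes, the cells put into culture, summed to 97.5 and 90.7 FPKM under the KO label, against 137 and 134 FPKM under the WT label, with 1 risen and 2 fallen of 4 tested. Innate-like T and NK markers, 2 of 8 with a row, summed to 14.6 and 17.7 FPKM under the KO label, against 45.9 and 42.5 FPKM under the WT label. Nkg7 made up nearly all of that sum, with 13.7 and 16.6 FPKM, against 45.6 and 42.1 FPKM. Zbtb16, the other gene with a row, lay below the filter. Its FPKM was higher under the KO label, at 0.9496 and 1.03, against 0.331 and 0.394 under the WT label. B cell markers, also 2 of 8 with a row, were higher, at 5.06 and 5.76 FPKM under the KO label, against 2.95 and 2.85 FPKM under the WT label. Stromal markers, 5 of 9 with a row, summed to 30.2 and 28.9 FPKM under the KO label, against 15.9 and 17.9 FPKM under the WT label. That sum was nearly all Pecam1, with 21.2 and 21.3 FPKM, against 10.8 and 12.9 FPKM, and Epcam, with 8.30 and 6.88 FPKM, against 4.69 and 4.52 FPKM. Krt18, Psmb11 and Col1a1 lay below the filter. Mitochondrially encoded genes took 1.69% and 1.49% of counts under the KO label, against 2.06% and 1.83% under the WT label. Myeloid markers, of which 3 of 12 had a row, summed to 42.2 and 44.9 FPKM under the KO label, against 48.6 and 44.6 FPKM under the WT label. Cst3 made up nearly all of that sum, with 41.0 and 44.4 FPKM under the KO label, against 47.8 and 44.1 FPKM under the WT label. The part of these features in the results above was not tested. In such bulk samples, fewer cells of a type and less RNA per cell cannot be told apart.

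In vivo, almost none of these genes passed the test. Of 35 tested in the in vivo contrast, 0 rose and 2 fell (5.71%), Eno3 and Epas1, and 33 did not pass, against 1.10% of all 10227 genes called, 0.284% higher and 0.821% lower. At an unadjusted p under 0.05, 1445 of all genes passed in vivo. The median log2 fold change of the 35 genes was 0.00, against -0.00 for all genes, with a range of -1.46 to 0.40. FPKM of the groups did not overlap for 5 genes higher and 12 lower under the KO label, against 43.4% of all tested genes, 22% higher and 21.4% lower. Summed FPKM of the 18 enzymes was 616 and 593 in the in vivo libraries labelled KO, against 644 and 567 in those labelled WT, with the KO values inside the WT range.

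Eno3 fell in vivo as in vitro. It had 14.5 and 19.0 FPKM in the in vivo libraries labelled KO, against 38.0 and 45.2 FPKM in those labelled WT. That was a 2.50-fold fall (log2 fold change -1.32, SE 0.16, edgeR adjusted p = 0.0365), without overlap. Its share of enolase FPKM was 28.4% and 31.9% under the KO label, against 49.5% and 58.2% under the WT label, while Eno1 held 69.9% and 65.2% under the KO label, against 48.6% and 39.5% under the WT label. Eno1 itself had 35.8 and 38.8 FPKM under the KO label, against 37.2 and 30.7 FPKM under the WT label, and did not pass (edgeR adjusted p = 0.757). Without WT replicate 2 the Eno3 change was -1.18 (adjusted p = 0.108), and without KO replicate 1 it was -1.15 (adjusted p = 0.0774).

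Epas1 passed the filter in vivo but not in vitro, in tables that were normalized separately. It lies on chr17:86753700-86833410 (plus strand) and had 2.21 and 2.22 FPKM in the in vivo libraries labelled KO, against 6.38 and 5.79 FPKM in those labelled WT. Epas1 fell 2.76-fold (log2 fold change -1.46, SE 0.12, edgeR adjusted p = 0.0179), with the groups well apart. Without WT replicate 2 it was -1.53 (adjusted p = 0.0619), and without KO replicate 1 it was -1.47 (adjusted p = 0.0534). Calls over all genes numbered 7 without WT replicate 2 and 21 without KO replicate 1, against 113 with all 4 libraries. Hif1a, the sister subunit, had 22.8 and 22.7 FPKM under the KO label, against 24.1 and 26.2 FPKM under the WT label, and did not pass (edgeR adjusted p = 0.588).

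**Figure D3:**
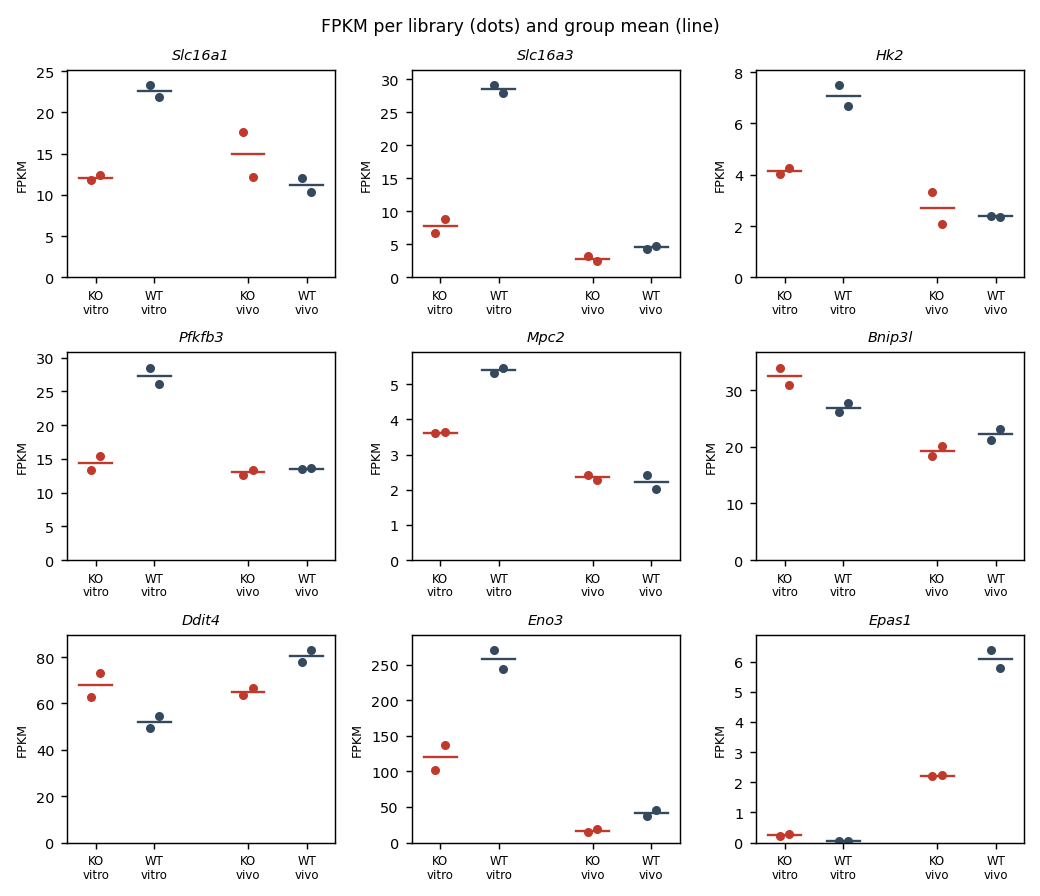
FPKM of 9 genes is drawn per library (dots) with group means (lines), KO left of WT, in vitro left of in vivo, each panel on its own axis from 0. Slc16a1, Slc16a3, Hk2, Pfkfb3 and Mpc2 lie lower under the KO label in vitro, Bnip3l and Ddit4 lie higher there, Eno3 lies lower in both systems, and Epas1 lies lower in vivo and near 0 in vitro.

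The transporters and regulators that fell in vitro did not pass in vivo, apart from Slc16a3 under some alternatives. Slc16a3 had 3.28 and 2.43 FPKM in the in vivo libraries labelled KO, against 4.37 and 4.71 FPKM in those labelled WT. The groups did not overlap, yet its log2 difference of -0.68 (SE 0.18) had an edgeR adjusted p of 0.159. With all 8 libraries in 1 fit it passed, at -0.66 (adjusted p = 0.0458). Slc16a1 had 17.7 and 12.2 FPKM under the KO label, against 12.1 and 10.4 FPKM under the WT label, a log2 difference of 0.40 (SE 0.19, edgeR adjusted p = 0.428). Hk2 overlapped, with 3.31 and 2.09 FPKM under the KO label, against 2.40 and 2.36 FPKM under the WT label. Pfkfb3 had 12.6 and 13.4 FPKM under the KO label, against 13.4 and 13.7 FPKM under the WT label, an edgeR adjusted p of 0.839. Mpc2 overlapped, with 2.43 and 2.27 FPKM under the KO label, against 2.42 and 2.02 FPKM under the WT label. Mean FPKM of Slc16a1, Hk2 and Mpc2 was thus not lower under the KO label here, but the sign turned for Hk2 without KO replicate 1 (-0.20) and for Mpc2 without WT replicate 2 (-0.05). Ldhb was lower under the KO label without overlap, at 19.4 and 25.5 FPKM, against 28.01 and 34.1 FPKM under the WT label, and missed the threshold (log2 fold change -0.48, SE 0.17, edgeR adjusted p = 0.277). Ldha, the other lactate dehydrogenase subunit, had 128 and 119 FPKM under the KO label, against 117 and 97.5 FPKM under the WT label (edgeR adjusted p = 0.575). The lactate dehydrogenase subunits leaned in opposite directions, neither past the test. Ddit4 had 63.7 and 66.6 FPKM under the KO label, against 78.0 and 83.0 FPKM under the WT label, a log2 difference of -0.31 (SE 0.09, edgeR adjusted p = 0.195) that lay opposite to its rise in vitro. Bnip3l had 18.3 and 20.0 FPKM under the KO label, against 21.2 and 23.1 FPKM under the WT label (log2 fold change -0.22, edgeR adjusted p = 0.425). Gapdh, with 6.04 and 6.88 FPKM under the KO label, against 6.49 and 6.66 FPKM under the WT label, overlapped. Aldoc and Bnip3 lay below the filter in vivo, with count ratios per library total of 0.903 (exact 95% interval 0.557 to 1.46) and 1.07 (0.717 to 1.61).

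None of the other members passed in vivo. Hk1 had 23.5 and 25.1 FPKM under the KO label, against 22.2 and 21.1 FPKM under the WT label, a difference of 0.16 on the log2 scale (SE 0.10, edgeR adjusted p = 0.57) that had the sign of its rise in vitro. Tpi1 overlapped, with 37.3 and 27.1 FPKM under the KO label, against 34.3 and 26.8 FPKM under the WT label. Pgam1 did too, with 9.78 and 8.73 FPKM under the KO label, against 10.3 and 8.12 FPKM under the WT label. Both enzymes had fallen in vitro. Pgk1 was higher under the KO label without overlap, with 36.2 and 33.1 FPKM, against 32.6 and 28.2 FPKM under the WT label (edgeR adjusted p = 0.59). Gpi1, with 72.2 and 69.9 FPKM under the KO label, against 73.0 and 61.5 FPKM under the WT label, overlapped, as did Pkm and Pdha1. Pfkp had 14.8 and 15.1 FPKM under the KO label, against 17.0 and 17.7 FPKM under the WT label (edgeR adjusted p = 0.381). Slc2a3 had 13.9 and 13.8 FPKM under the KO label, against 14.1 and 13.1 FPKM under the WT label (edgeR adjusted p = 0.977). Egln3 had 8.07 and 6.34 FPKM under the KO label, against 9.54 and 8.71 FPKM under the WT label (edgeR adjusted p = 0.414). Vhl, its partner in HIF turnover, had 9.53 and 8.82 FPKM under the KO label, against 11.3 and 11.4 FPKM under the WT label (log2 fold change -0.31, SE 0.11, edgeR adjusted p = 0.273). Pfkp, Egln3 and Vhl were thus lower under the KO label without overlap.

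Markers of other cells were uneven in vivo. Of 12 myeloid markers, 10 had a row, and their summed FPKM was 385 and 208 under the KO label, against 197 and 118 under the WT label. Fcer1g was the largest part of that sum, with 187 and 146 FPKM under the KO label, against 110 and 64.5 FPKM under the WT label. Cst3 overlapped, with 42.6 and 36.2 FPKM under the KO label, against 44.5 and 37.9 FPKM under the WT label. The defining markers Lyz2, at 109 and 15.7 FPKM under the KO label, against 25.6 and 10.7 FPKM under the WT label, and Csf1r, at 7.59 and 0.725 FPKM, against 1.73 and 0.646 FPKM, were highest in KO replicate 1. B cell markers summed to 28.01 and 20.6 FPKM under the KO label, against 16.0 and 5.04 FPKM under the WT label. Proliferation genes summed to 277 and 178 FPKM under the KO label, against 150 and 114 FPKM under the WT label, and 0 of 10 were called. Double-positive thymocyte genes were uneven too, with Dntt at 62.1 and 29.4 FPKM under the KO label, against 14.3 and 8.76 FPKM under the WT label, and Rag1 at 7.53 and 2.83 FPKM under the KO label, against 1.24 and 0.903 FPKM under the WT label. Sox13, the 1 gamma delta T marker of 7 with a row, had 48.4 and 31.4 FPKM under the KO label, against 21.0 and 15.4 FPKM under the WT label. None of Dntt, Rag1 and Sox13 was called. The 9 heat shock and dissociation stress genes summed to 306 and 348 FPKM under the KO label, against 249 and 191 FPKM under the WT label. Hspa1a (log2 fold change 2.32, edgeR adjusted p = 0.0181) and Hspa1b (2.46, edgeR adjusted p = 0.0185) rose, the only calls among these lists in vivo. The part of these genes in the Eno3 and Epas1 results was not tested.

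The genotype difference was then compared between systems in 1 fit over all 8 libraries, as in vitro KO minus WT less in vivo KO minus WT. Of 34 genes that passed the filter in both systems, 7 differed (20.6%), 2 higher and 5 lower in vitro, against 16.4% of all 9364 genes, 9.81% higher and 6.57% lower. Slc16a1 differed by -1.30 on the log2 scale (SE 0.22, edgeR adjusted p = 0.00373), Slc16a3 by -1.20 (SE 0.22, edgeR adjusted p = 0.00504) and Pfkfb3 by -0.86 (SE 0.14, edgeR adjusted p = 0.00303). These 3 calls were kept in every alternative tried. Ddit4 differed by 0.70 (SE 0.14, edgeR adjusted p = 0.00876), and its adjusted p was 0.0600 without WT in vitro replicate 1. Hk2 differed by -0.95 (SE 0.25, edgeR adjusted p = 0.0278), Mpc2 by -0.65 (SE 0.17, edgeR adjusted p = 0.028) and Bnip3l by 0.48 (SE 0.13, edgeR adjusted p = 0.0298). Hk2 and Mpc2 lost the call when any of 6 libraries was left out, the exceptions being KO in vivo replicate 2 and WT in vivo replicate 1, and without KO in vivo replicate 1 the Hk2 difference was -0.57 (adjusted p = 0.0951). Bnip3l lost it when any of 5 libraries was left out, with adjusted p of 0.0524 to 0.125. The number of genes that differed was 3 without WT in vitro replicate 1, 4 without WT in vitro replicate 2, KO in vitro replicate 1 or WT in vivo replicate 2, and 11 without WT in vivo replicate 1. Eno3 had 0.21 (SE 0.22, edgeR adjusted p = 0.551), so its fall was not shown to differ between systems. Epas1 was tested for this difference only without the filter, where it was 3.71 (SE 0.35, edgeR adjusted p = 0.000417).

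Other genes of the same pathways, from lists that do not include the 37, moved in both directions in vitro, and in vivo calls were made in 1 of the 8 lists. The shares over all genes to set beside the counts are 20.1% higher and 17.7% lower in vitro, and 0.284% higher and 0.821% lower in vivo. Called in vitro were 28.6% of the genes of glucose uptake and phosphorylation, 33.3% of the pentose phosphate pathway, 37.5% of other glycolysis and gluconeogenesis, 40% of HIF regulators, 50% of the pyruvate dehydrogenase list, 52.9% of energy sensing, 70.6% of HIF-induced genes outside glycolysis and 75% of the 4 carriers tested, against 37.8% of all genes. Of 17 tested HIF-induced genes outside glycolysis, 3 rose and 9 fell in vitro, with a median log2 fold change of -0.43. Ndrg1, a stress-responsive gene, had 5.91 and 7.11 FPKM under the KO label, against 14.0 and 11.7 FPKM under the WT label, and fell by 0.95 on the log2 scale (SE 0.11, edgeR adjusted p = 0.000111). Lox, the collagen cross-linking oxidase, fell by 2.34 (SE 0.29, edgeR adjusted p = 0.00014) and was low, with 0.165 and 0.366 FPKM under the KO label, against 1.39 and 1.45 FPKM under the WT label. The transcription factor Bhlhe40 fell by 1.01 and the carbonic anhydrase Car12 by 0.86. The list had 1 risen without WT replicate 1 or without KO replicate 1. In vivo 0 of 19 tested genes of this list passed, with a median of -0.09.

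**Figure D4:**
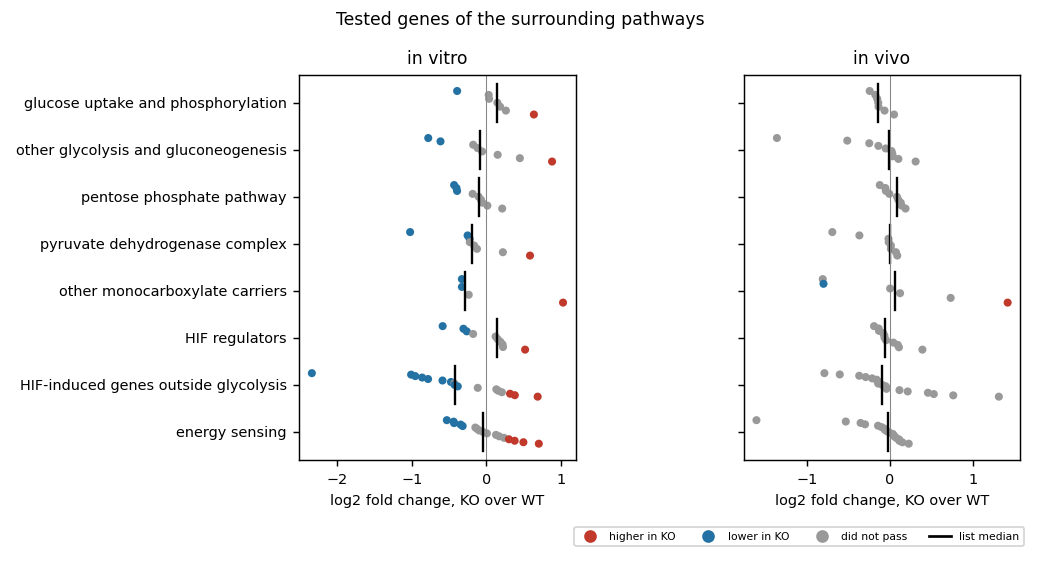
The log2 fold change, KO over WT, of every tested gene in 8 lists of related pathways is drawn for the in vitro (left) and in vivo (right) libraries, with list medians as black lines. In vitro most of the HIF-induced genes outside glycolysis lie below 0, and in vivo the 2 genes past the threshold are both in the carrier list.

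Of 4 tested genes in the list of other monocarboxylate carriers and their chaperones, 1 rose and 2 fell in vitro. Bsg (basigin), the chaperone that brings MCT1 and MCT4 to the cell surface, had 90.8 and 106 FPKM under the KO label, against 137 and 115 FPKM under the WT label (log2 fold change -0.33, SE 0.10, edgeR adjusted p = 0.0278). Emb (embigin), another chaperone of monocarboxylate carriers, had 12.8 and 10.6 FPKM under the KO label in vitro, against 5.40 and 6.28 FPKM under the WT label, and rose 2.04-fold (edgeR adjusted p = 6.47e-05). In vivo 2 of 6 tested carriers passed (33.3%, against 1.1% of all genes). Emb fell 1.74-fold there, with 11.996 and 13.1 FPKM under the KO label, against 20.7 and 22.7 FPKM under the WT label (edgeR adjusted p = 0.0388). Its genotype difference thus differed between systems by 1.80 (SE 0.16, edgeR adjusted p = 0.000271), the opposite sign to Slc16a1 and Slc16a3. Slc16a5, a further carrier of the family, had 5.13 and 3.83 FPKM under the KO label in vivo, against 1.74 and 1.60 FPKM under the WT label, and rose 2.67-fold (edgeR adjusted p = 0.0444). Neither in vivo call was made without WT replicate 2 or without KO replicate 1, and the list had 0 fallen in vitro without WT replicate 1 and 1 without KO replicate 1.

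In the pyruvate dehydrogenase list, Pdp1, the phosphatase that activates the complex, had 3.38 and 3.82 FPKM under the KO label in vitro, against 7.55 and 7.39 FPKM under the WT label, and fell 2.03-fold (edgeR adjusted p = 4.38e-05). Pdk2, an inhibiting kinase, rose by 0.58 (SE 0.12, edgeR adjusted p = 0.00338), while the subunits Dlat and Dld fell by 0.25 and 0.23. That made 1 risen and 3 fallen of 8, and with any 1 in vitro library left out 1 was fallen. In the pentose phosphate pathway, which branches from glucose phosphate, 3 of 9 fell, the oxidative enzymes G6pdx (-0.39) and Pgls (-0.43) and the transketolase Tkt (-0.40). None of them passed without WT replicate 1 and 1 did without KO replicate 1. Of 8 other genes of glycolysis and gluconeogenesis, Pgam2 rose by 0.88, while Tigar, which lowers flux through phosphofructokinase, fell by 0.62 and the glycerol phosphate shuttle enzyme Gpd2 fell by 0.78. Of 7 further genes of glucose uptake and phosphorylation, Slc2a9 rose by 0.64 and Adpgk fell by 0.39. Without WT replicate 1 none of these 7 fell, and without KO replicate 2 there were 2 risen. Of 10 HIF regulators 1 rose, the p300-binding HIF competitor Cited2 (0.52), and 3 fell, led by the ubiquitin ligase Siah2 (-0.59). That list had 1 fallen without WT replicate 1 or without KO replicate 2, and 2 risen without KO replicate 1. Of 17 energy sensing genes 4 rose and 5 fell, with 2 risen without WT replicate 1. Myc, an activator of many glycolytic genes, had 53.9 and 62.8 FPKM under the KO label, against 90.5 and 81.3 FPKM under the WT label (log2 fold change -0.53, SE 0.10, edgeR adjusted p = 0.00136). Txnip, a brake on glucose uptake, had 27.9 and 21.2 FPKM under the KO label, against 15.3 and 15.5 FPKM under the WT label (log2 fold change 0.70, SE 0.12, edgeR adjusted p = 0.00107).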

How the data were processed

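Sorted mouse thymocytes gave 8 libraries in 4 groups. For every gene the authors deposited a whole-number read count and an FPKM. Per the submitters' processing notes, mm10 was the build and the tools included Trim Galore 0.4.4, RSEM, featureCounts (Subread), Bowtie2 and DESeq2. The sources used here do not give tool roles, the annotation or the strand setting, so reads of genes with opposite-strand neighbours, among them Hif1a, Hk1 and Tpi1, cannot be told apart.

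The members and lists were chosen with earlier results of these data known. Counts were tested with the quasi-likelihood test of edgeR 4.0.16 (R 4.3.3, TMM), KO minus WT, on the 4 libraries of each system with no replicate block. A gene entered the two-sided test if 2 or more libraries had an FPKM of 1 or more, with Benjamini-Hochberg adjustment over all of them. Each SE is the size of the log2 fold change divided by the root of its F statistic. Aldoc in both systems, Epas1 in vitro and Bnip3 in vivo lay below this filter. Within every group the replicates were further apart than sampling noise allows, with a chi-square per degree of freedom of 9.32 to 18.9.

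All 37 genes are accounted for. Those past the threshold, Hif1a, Epas1 and their paralogs are named with values, and of each other list up to 4 called genes by size of change. Pkm, Pgk1, Pdha1, Vhl and Gpi1 are also named. Alternatives used other scalings, filters, pseudocounts of 1 and 0.1, limma 3.58.1, DESeq2 1.42.0, a replicate block, all 8 libraries in 1 fit, and 1 library left out at a time, where the lone library is assumed to vary like the others. Loci are from GENCODE M21. Near-identical genes share at least 95% identity over at least 300 bases of transcript (blastn 2.17.0).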

Additional observations from a re-analysis of the deposited data

Results flagged for a closer look

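For 7 genes the change between KO and WT labels differed between the in vitro and in vivo systems in edgeR's test over all 8 libraries. On the log2 scale, in vitro less in vivo, the difference was -1.30 for Slc16a1, -1.20 for Slc16a3, -0.95 for Hk2, -0.86 for Pfkfb3, 0.70 for Ddit4, -0.65 for Mpc2 and 0.48 for Bnip3l. Slc16a1 had log2 fold changes of opposite sign in the 2 systems, -0.87 in vitro and 0.40 in vivo, as did Ddit4 and Bnip3l. Hk2 and Mpc2 were near 0 in vivo (0.17, SE 0.24, and 0.07, SE 0.15), with a sign that turned when 1 library was left out. Slc16a3 was lower under the KO label in both systems, by more in vitro, but in vivo it did not pass (edgeR adjusted p = 0.159). Pfkfb3 fell in vitro and was near 0 in vivo (-0.07, SE 0.09). Groups of 2 libraries were too small for a check on outlying samples.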

How the results depend on the processing

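In vitro, 3 to 5 of the 37 genes rose and 8 to 13 fell over the alternatives, 3 and 9 to 11 with a library left out. In vivo 0 rose in every alternative. There 2 fell, but 3 with all 8 libraries in 1 fit, which added Slc16a3, 4 with the replicate block, which added Ldhb and Slc16a3, and 0 to 2 with a library left out. The difference between systems was called for 7 genes, and for 3 to 11 with a library left out. No called direction reversed, while values that missed the threshold could change sign, such as Hk2 in vivo (-0.20 to 0.48) and Slc2a3 in vitro (-0.06 to 0.03). Outside the in vivo falls, the block gave 3 risen and 10 fallen in vitro and 9 differing, and over all genes 3159 in vitro (3649 without it) and 1078 in vivo (113 without it). The labels do not say that the numbers pair samples, and with 2 pairs this cannot be settled. The correlation of same-numbered deviations was -0.31 in vitro and 0.46 in vivo. Crossing the in vitro numbers, an alternative chosen after seeing the data, gave 5 risen, 13 fallen and 4997 calls over all genes. DESeq2 called 505 genes in vivo. In vitro the Gapdh call was lost in 7 of 15 alternatives, Eno1 and Pdk3 in 8 each, Hif1a in 3 and Bnip3l in 2, while Ldha gained one in 7, Gpi1 in 4, Eno2 in 2 and Slc2a1 in 1. The cause was not tested. Depth limits Aldoc, Epas1 in vitro and Bnip3 in vivo, which had 4 to 36 counts per library.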
